A study of Mus musculus with 16 samples.

Results

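The regulators of G-protein signaling (RGS) are a family of proteins that switch off signals from G-protein-coupled receptors. Expression of 8 family genes was followed across CD8 T-cell subsets of leukemic mice: Rgs1, Rgs2, Rgs3, Rgs10, Rgs14, Rgs16, Rgs18 and Rgs19. They are 8 of 22180 genes measured. Each was represented by a probe set annotated with its symbol alone, and among several such probe sets the brightest by its mean over 16 arrays was taken. Only Rgs2 had a choice to make; its other probe set is described with its values.

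Female mice, given as C56BL/6 or C57BL/6 in the labels, had received murine chronic lymphocytic leukemia (CLL) cells from Eµ-TCL1 mice. In that strain the TCL1 oncogene is driven by an immunoglobulin enhancer that acts in B cells. The recipients' spleens were taken 6 weeks after the transfer, and Lin- TCRb+ CD8+ T cells were sorted into 4 subsets with 4 arrays each. Naive cells were CD127hi CD44low and memory cells CD127hi CD44hi, while both effector subsets were CD127low CD44int-hi and were split into PD-1int and PD-1hi. All 16 arrays came from leukemic mice, and no sample from a mouse without leukemia enters any comparison. The age of the mice is not given in the labels. The labels do not say whether arrays of a subset came from separate mice, so the p-values reflect only how much these arrays vary, which may be technical.

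When a receptor is engaged, the G-protein alpha subunit binds GTP and separates from its beta and gamma partners, and both parts pass the signal on. RGS proteins speed up GTP hydrolysis by alpha subunits, mainly of the Gi and Gq classes, and so shorten the signal. In lymphocytes the best known receptors of this kind guide migration: chemokine receptors and the sphingosine 1-phosphate receptor S1pr1. Rgs1, Rgs2, Rgs3, Rgs16 and Rgs18 belong to the R4 subfamily, most of whose members are short proteins with little beyond the RGS domain. Rgs10 and Rgs14 belong to the R12 subfamily and Rgs19 to the RZ subfamily.

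The main pattern was a split within the family. Rgs1 and Rgs16 were higher in both effector subsets than in naive and memory cells and higher again in PD-1hi than in PD-1int cells. Rgs3 rose in memory and in both effector subsets over naive cells. Rgs10 was 3.29-fold to 4.11-fold lower in both effector subsets than in naive and memory cells. Rgs2, Rgs14 and Rgs19 moved by less than 1.5-fold in every comparison, and Rgs18 passed in none.

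The promoters of Rgs16 and Rgs10 are printed because these genes moved in opposite directions in both effector subsets. Each is the 250 bases before the gene's start in the RefSeq promoter table (build GRCm38.p6), read along the gene. Capitals mark CACCC on either strand (GGGTG when read on the printed strand), the core of the motif of KLF factors, and the start site follows the last base. The Rgs16 window is chr1:153740103-153740352 on the plus strand and the Rgs10 window is chr7:128418173-128418422 on the minus strand.
Rgs16: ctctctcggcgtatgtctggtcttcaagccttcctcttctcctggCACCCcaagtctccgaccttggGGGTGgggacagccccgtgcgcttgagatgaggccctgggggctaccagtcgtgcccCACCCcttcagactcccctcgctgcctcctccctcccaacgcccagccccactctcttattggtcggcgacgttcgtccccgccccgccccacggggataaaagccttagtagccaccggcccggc
Rgs10: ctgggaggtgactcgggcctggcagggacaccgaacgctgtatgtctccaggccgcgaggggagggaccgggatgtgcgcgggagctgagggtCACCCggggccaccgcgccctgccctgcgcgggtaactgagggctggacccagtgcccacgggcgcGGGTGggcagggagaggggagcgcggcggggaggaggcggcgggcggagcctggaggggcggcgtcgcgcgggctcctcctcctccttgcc

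The Rgs16 window held 3 CACCC matches and the Rgs10 window 2, and their GC contents were 66.4% and 76.4%. At least 1 CACCC lay in 52% of all 32851 promoters of the same length, so its presence does not set these genes apart. Neither window held TGANTCA (the AP-1 motif, in 6.75% of promoters), TGACGTCA (the cAMP response element, 1.55%) or GGAAAA (a core of NFAT sites, 20.4%) on either strand. The table held no entry under Rgs1, Rgs14 or Rgs18. The Rgs2 window (chr1:144004150-144004399, minus strand) held 1 CACCC and none of the other motifs. Both Rgs3 windows, on chromosome 4, held 1 CACCC each, and of 3 Rgs19 windows on chromosome 2 one held a GGAAAA.

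Values are the authors' deposited log2 expression values, so a difference of 1 is a 2-fold change. Array medians lay between 6.39 and 6.49, and arrays of a subset correlated at r = 0.990 to 0.994 over all genes. Of the sort genes, Pdcd1 and Il7r followed their gates. Pdcd1, which encodes PD-1, averaged 6.80, 7.10, 10.12 and 11.40 in naive, memory, PD-1int and PD-1hi cells. Il7r, which encodes CD127, averaged 12.97, 12.57, 7.49 and 4.91. Cd44 exceeded its naive level by 2.92 for memory, 2.62 for PD-1int and 1.86 for PD-1hi cells (limma, highest adjusted p = 1.09e-10). Although the effector subsets shared a CD44int-hi gate, Cd44 was lower in PD-1hi than in PD-1int cells (-0.76, adjusted p = 0.000241). PD-1hi cells also lay below memory cells (-1.06, adjusted p = 3.38e-07). Cd8a averaged 11.65, 11.65, 11.42 and 11.46 and passed in no comparison, but other CD8 T-cell identity genes did: of 8 measured, 4 rose and 1 fell in each effector subset against naive cells. Cd8b1 fell by 0.32 and 0.33 in PD-1int and PD-1hi cells, and Zap70 rose by 0.68 and 1.11 (both named after their values were seen). Of 15 measured B-cell markers, Ms4a1 (means 5.35, 5.32, 5.54 and 5.40) passed in no comparison and 5 others passed in at least 1; 4 of these are described beside Rgs10, and the fifth, Cd5, is also a T-cell gene. The files carry no detection calls, so whether a low value lies above background is unknown, and values of different genes are not compared as levels.

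**Figure D1:**
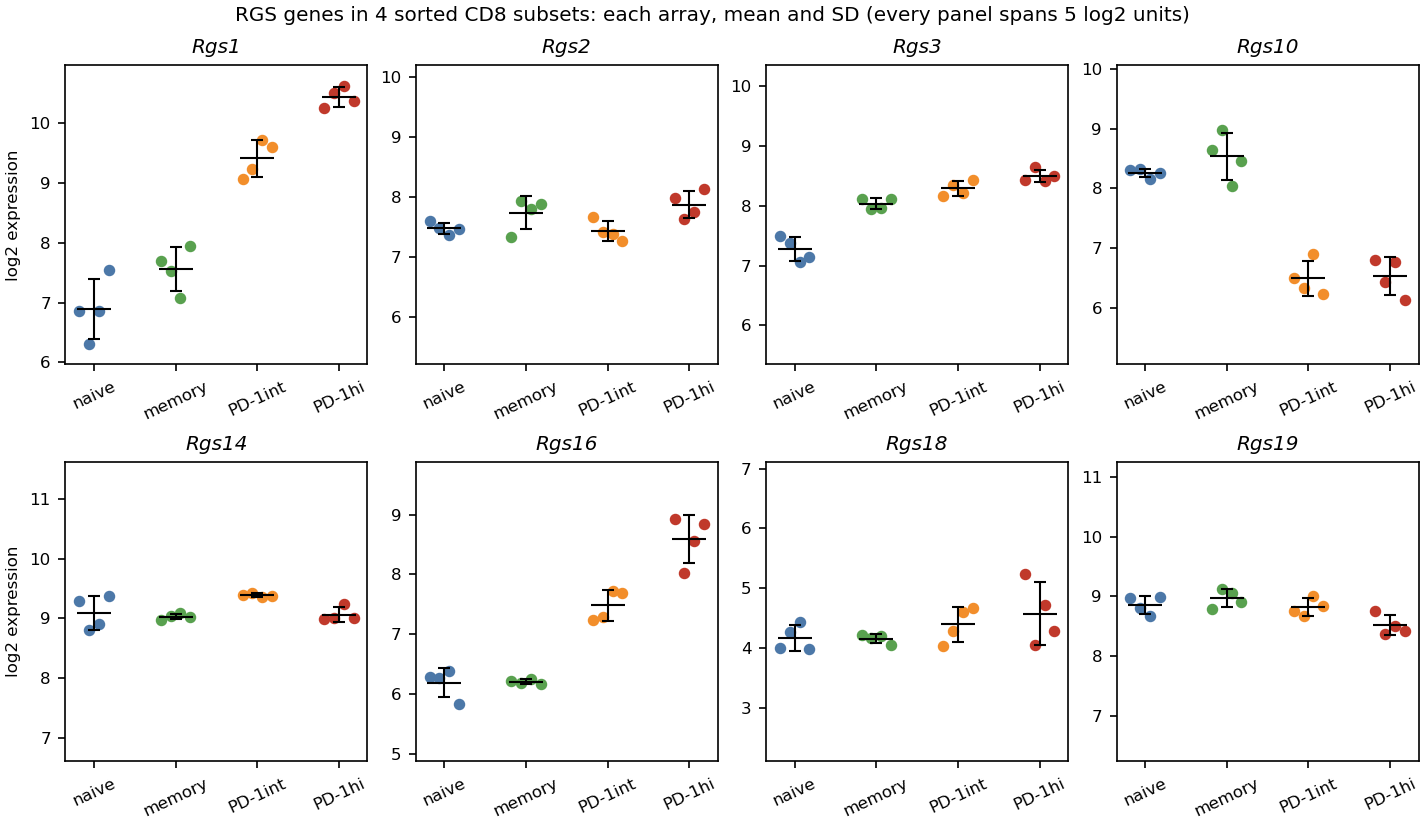
Log2 expression of the 8 RGS genes in each of the 16 arrays, by subset, with the mean and SD of each subset (n = 4). Each panel spans the same number of log2 units. Rgs1 and Rgs16 step upward from memory to PD-1int to PD-1hi, and the naive and memory arrays of Rgs10 all lie above its effector arrays.

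Rgs1, which dampens chemokine-driven migration of lymphocytes, had the largest difference of the 8 genes in each effector subset against naive cells and in PD-1hi against memory cells. Its values were 6.85, 6.31, 6.85 and 7.54 in naive arrays 1 to 4 and 7.70, 7.53, 7.08 and 7.94 in memory arrays. They were 9.07, 9.24, 9.72 and 9.61 in PD-1int arrays and 10.25, 10.50, 10.62 and 10.37 in PD-1hi arrays. Naive and memory arrays overlapped; every PD-1int array lay above them, and every PD-1hi array lay above every PD-1int array. Subset means were 6.89 ± 0.50, 7.56 ± 0.37, 9.41 ± 0.31 and 10.44 ± 0.16 (SD, n = 4 each).

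Against naive cells, Rgs1 was 11.7-fold higher in PD-1hi cells (log2 difference 3.55 ± 0.22, SE; limma, adjusted p = 4.95e-10) and 5.74-fold higher in PD-1int cells (2.52 ± 0.22; adjusted p = 6.74e-08). Against memory cells the rises were 7.33-fold in PD-1hi (adjusted p = 1.73e-08) and 3.6-fold in PD-1int (adjusted p = 7.91e-06). PD-1hi cells exceeded PD-1int cells 2.04-fold (1.03 ± 0.22, adjusted p = 0.0118). Memory against naive gave 0.67 (95% interval 0.22 to 1.13), which did not pass (adjusted p = 0.053); it passed without naive array 4 (0.89, adjusted p = 0.00548) or without memory array 3 (0.84, adjusted p = 0.0188).

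Rgs16, an R4 member known to restrain chemokine responses of activated T cells, was also higher in both effector subsets. It read 6.28, 6.27, 6.38 and 5.84 in naive arrays and 6.22, 6.18, 6.26 and 6.17 in memory arrays. PD-1int arrays read 7.24, 7.29, 7.72 and 7.68, and PD-1hi arrays read 8.92, 8.03, 8.56 and 8.84. Naive and memory arrays interleaved, with means of 6.19 ± 0.24 and 6.21 ± 0.04. PD-1int (7.48 ± 0.25) and PD-1hi arrays (8.59 ± 0.40) overlapped neither them nor each other.

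The memory-naive difference of Rgs16 was 0.02, with a 95% interval of -0.34 to 0.37 (limma, adjusted p = 0.977). Against naive cells Rgs16 was 2.45-fold higher in PD-1int (adjusted p = 1.09e-05) and 5.26-fold higher in PD-1hi cells (adjusted p = 2.75e-09). Against memory cells it was 2.42-fold higher in PD-1int (adjusted p = 2.56e-05) and 5.2-fold higher in PD-1hi cells (adjusted p = 6.63e-09). The step between effector subsets was 1.11 ± 0.17 on the log2 scale, or 2.15-fold (adjusted p = 0.000738).

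Rgs3, which acts on Gi and Gq alpha subunits, was the only one of the 8 to pass between memory and naive cells. Naive arrays read 7.49, 7.38, 7.05 and 7.15, and memory arrays 8.11, 7.94, 7.96 and 8.12. PD-1int arrays read 8.17, 8.35, 8.21 and 8.44, and PD-1hi arrays 8.43, 8.64, 8.41 and 8.50. All naive arrays lay below all others, memory arrays lay below all PD-1int arrays, and the effector subsets overlapped.

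Rgs3 rose over naive cells by 0.76 ± 0.10 in memory (limma, adjusted p = 3.01e-05), by 1.02 ± 0.10 in PD-1int (2.03-fold, adjusted p = 2.84e-07) and by 1.22 ± 0.10 in PD-1hi cells (2.34-fold, adjusted p = 1.78e-08). It was also higher in PD-1hi than in memory cells (0.46, adjusted p = 0.00168). The later steps of the order did not pass: PD-1int over memory gave 0.26 (adjusted p = 0.089) and PD-1hi over PD-1int gave 0.20 (95% interval -0.01 to 0.41, adjusted p = 0.367).

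Genes of cell division were read beside these 3 genes. Of 19 measured mitosis genes, 18 rose in memory over naive cells, 19 in each effector subset over naive cells and 3 in PD-1hi over PD-1int cells. In that last comparison 18 were higher at an unadjusted p under 0.05, and 16 passed when only its 8 arrays were fitted. Of all genes, limma called 6.7% higher when memory cells were set against naive cells. The share was 11.9% for PD-1int against naive, 13.4% for PD-1hi against naive and 1.37% for PD-1hi against PD-1int cells. Rgs16 did not pass in memory against naive cells, where the mitosis genes rose. The mean over the list ranged over arrays from 6.27 to 6.54 in naive arrays, 7.46 to 8.67 in memory arrays, 8.88 to 9.39 in PD-1int arrays and 9.78 to 10.18 in PD-1hi arrays. Within the memory subset that mean was 8.67 and 8.47 in arrays 1 and 4 and 7.49 and 7.46 in arrays 2 and 3, while the 4 Rgs16 values spanned 6.17 to 6.26. Arrays 1 and 4 also held the higher memory values of Rgs1 (7.70 and 7.94) and Rgs3 (8.11 and 8.12). Within the PD-1hi subset, array 1 held the highest list mean (10.18) and the lowest Rgs1 value (10.25). PD-1hi array 3 held the lowest list mean (9.78), the highest Rgs1 value (10.62) and the lowest Rgs3 value (8.41). The part of cell division in the rises of Rgs1, Rgs3 and Rgs16 was not tested.

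Early-response genes, a class that includes RNAs induced within minutes of receptor engagement or cell handling, were divided. Of 24 measured, 11 rose and 3 fell in PD-1int against naive cells (all genes: 11.9% and 10.8%). In PD-1hi against naive cells 10 rose and 4 fell (13.4% and 13.7%). In PD-1hi against PD-1int cells 4 rose and 2 fell (1.37% and 1.94%). Nr4a2, an orphan nuclear receptor gene switched on by antigen receptor signals, rose by 2.94 ± 0.17 in PD-1int and 4.67 ± 0.17 in PD-1hi cells over naive (limma, adjusted p = 3.25e-10 and 5.34e-13). The list mean ranged from 8.03 to 8.22 in naive arrays, 7.98 to 8.22 in memory arrays, 8.46 to 8.61 in PD-1int arrays and 8.49 to 8.70 in PD-1hi arrays. Their part in the rise of Rgs1 and Rgs16 was not tested.

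Some genes on the list of myeloid and dendritic-cell markers also rose in the effector subsets. Of 17 measured, 4 rose and 1 fell in each effector subset against naive cells. In PD-1hi against PD-1int cells 0 rose and 1 fell (0 and 3 at an unadjusted p under 0.05). Of all genes, 11.9% rose and 10.8% fell in PD-1int, and 13.4% and 13.7% in PD-1hi against naive cells. Against naive cells Itgax rose by 4.02 ± 0.25 in PD-1int and 2.40 ± 0.25 in PD-1hi cells, Cd68 by 2.86 ± 0.17 and 3.05 ± 0.17, and Itgam by 1.55 ± 0.20 and 1.03 ± 0.20 (limma, highest adjusted p of these 6 = 0.000557). Itgax also rose in memory over naive cells, by 2.93 ± 0.25 (limma, adjusted p = 1.73e-07). The gene that fell in each effector subset against naive cells was Cd209a (-0.37 in PD-1int and -0.47 in PD-1hi cells). These 4 genes were named after their values were seen. Itgax and Itgam encode integrins that activated T cells can also carry. Lyz2, which encodes lysozyme, averaged 5.93, 5.90, 6.20 and 6.43 from naive to PD-1hi and passed in PD-1hi against memory cells alone (0.53, adjusted p = 0.0492). The list mean ranged from 6.22 to 6.39 in naive arrays, 6.42 to 6.58 in memory arrays, 6.75 to 6.96 in PD-1int arrays and 6.66 to 6.82 in PD-1hi arrays. Its part in the rise of Rgs1, Rgs3 and Rgs16 was not tested.

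Rgs2, which is selective for Gq-class alpha subunits, moved little. Naive arrays read 7.60, 7.48, 7.37 and 7.46, memory arrays 7.34, 7.94, 7.80 and 7.89, PD-1int arrays 7.67, 7.42, 7.38 and 7.27, and PD-1hi arrays 7.98, 7.63, 7.75 and 8.13. The PD-1hi arrays all lay above the naive ones, and memory array 1 lay apart from the other memory arrays, below the naive range. PD-1hi exceeded naive cells 1.31-fold (0.39 ± 0.13; limma, adjusted p = 0.0328).

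That call on Rgs2 depended on single arrays and on the probe set. Without naive array 2, 3 or 4, or PD-1hi array 1 or 4, the adjusted p was 0.0606, 0.0881, 0.0633, 0.0866 and 0.121. The gene's other probe set averaged 4.41, 4.30, 4.20 and 4.24 from naive to PD-1hi cells, and with the mean of both probe sets the difference was 0.11 (adjusted p = 0.431). Without memory array 1, Rgs2 was higher in memory than in naive cells (0.40, adjusted p = 0.0404), lower in PD-1int than in memory cells (-0.44, adjusted p = 0.0162) and higher in PD-1hi than in PD-1int cells (0.44, adjusted p = 0.0372).

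Rgs18 is best known from megakaryocytes and platelets, where it limits signals of thrombin and ADP receptors. Its values spanned 3.98 to 4.44 in naive arrays, 4.05 to 4.22 in memory arrays, 4.03 to 4.67 in PD-1int arrays and 4.06 to 5.24 in PD-1hi arrays. All subsets overlapped. The largest differences were PD-1hi against memory (0.42 ± 0.20; limma, adjusted p = 0.161) and PD-1hi against naive (0.40 ± 0.20, adjusted p = 0.157), and both passed without PD-1hi array 2 (0.59 and 0.58, adjusted p = 0.0321 and 0.0305).

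The highest Rgs18 value, 5.24 in PD-1hi array 1, came with the highest value of the platelet chemokine gene Ppbp, 7.05. The other PD-1hi arrays read 4.06, 4.72 and 4.29 for Rgs18 and 5.65, 6.49 and 5.47 for Ppbp. Of 9 measured platelet and erythroid markers 1 rose and 1 fell in PD-1hi against naive cells (all genes: 13.4% and 13.7%). These were Ppbp, by 1.06 ± 0.25 (limma, adjusted p = 0.00348), and Itgb3, which T cells also express, by -0.36 (adjusted p = 0.0194). Pf4, another platelet chemokine gene, averaged 6.90, 6.56, 6.86 and 7.30 from naive to PD-1hi and passed in no comparison. In PD-1hi arrays 1 to 4 Pf4 read 7.251, 6.893, 7.452 and 7.595, so that its highest value was not in array 1. The list mean ranged from 6.36 to 6.63 in naive arrays, 6.55 to 6.69 in memory arrays, 6.40 to 6.59 in PD-1int arrays and 6.57 to 6.72 in PD-1hi arrays. The part of platelet RNA in the Rgs18 values was not tested; Ppbp and Itgb3 are named here after their values were seen.

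Rgs10, a short R12 member that acts on Gi-class alpha subunits, was the one gene of the 8 with a fall of over 2-fold. Naive arrays read 8.30, 8.32, 8.16 and 8.25 and memory arrays 8.65, 8.98, 8.04 and 8.46. PD-1int arrays read 6.51, 6.34, 6.90 and 6.23 and PD-1hi arrays 6.81, 6.44, 6.78 and 6.13. The lowest naive or memory array, at 8.04, stood above the highest effector array, at 6.90. Within each of these pairs of subsets the arrays overlapped.

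Against naive cells Rgs10 was 3.39-fold lower in PD-1int (-1.76 ± 0.18; limma, adjusted p = 6.76e-07) and 3.29-fold lower in PD-1hi cells (-1.72 ± 0.18, adjusted p = 6.37e-07). Against memory cells it was 4.11-fold lower in PD-1int (adjusted p = 2.97e-07) and 3.98-fold lower in PD-1hi cells (adjusted p = 1.76e-07). Memory and naive cells differed by 0.28 (adjusted p = 0.429). The difference between effector subsets was 0.05, with a 95% interval of -0.34 to 0.43 (adjusted p = 0.955), while Rgs1 and Rgs16 each differed there by over 1.

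Some B-lineage transcripts fell with Rgs10. Of 15 measured B-cell and CLL-cell markers, 2 rose and 3 fell in PD-1int against naive cells (all genes: 11.9% and 10.8%). In PD-1hi against naive cells 1 rose and 3 fell (13.4% and 13.7%). The falls were in Ighm (-2.98 ± 0.26 and -3.68 ± 0.26; limma, adjusted p = 6.37e-08 and 2.61e-09), Cd79b (-0.72 and -0.97) and Bank1 (-0.83 and -0.91). The rises over naive cells included Cd22 (3.22 ± 0.12 in memory cells, 1.74 ± 0.12 in PD-1int cells and 0.84 ± 0.12 in PD-1hi cells; adjusted p = 2.46e-12, 4.16e-09 and 2.38e-05). These 4 genes were named after their values were seen. Ighm encodes the IgM heavy chain, and its means were 12.63, 12.31, 9.65 and 8.95 from naive to PD-1hi. Ms4a1, and Cd79a with means of 6.32, 6.12, 6.24 and 6.16, passed in no comparison. The list mean ranged from 6.62 to 6.80 in naive arrays, 6.75 to 6.94 in memory arrays, 6.42 to 6.66 in PD-1int arrays and 6.29 to 6.58 in PD-1hi arrays. The part of B-cell RNA in the Rgs10 difference was not tested. In sorted populations a change in the share of expressing cells and a change in RNA per cell cannot be told apart, which applies to each gene described here.

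Rgs14, an R12 member that also carries a Ras-binding region and a GoLoco motif for inactive Gi subunits, varied over a narrow range. Its values were 9.30, 8.80, 8.91 and 9.38 in naive arrays, 8.98, 9.04, 9.08 and 9.02 in memory arrays, 9.39, 9.43, 9.36 and 9.37 in PD-1int arrays and 8.99, 9.01, 9.24 and 8.999 in PD-1hi arrays. PD-1int arrays lay above all memory and all PD-1hi arrays and overlapped the naive ones. PD-1int over memory passed (0.36 ± 0.11; limma, adjusted p = 0.0287), whereas PD-1hi against PD-1int (-0.33, adjusted p = 0.131) and PD-1int against naive (0.29, adjusted p = 0.0631) did not. The call on PD-1int over memory was lost in 7 of the 16 fits that left out 1 array, with adjusted p of 0.0537 to 0.0724 and differences of 0.34 to 0.38 over all 16. These 7 left out memory array 1, 2 or 4 or any 1 of the PD-1int arrays. Among fits without an array of these 2 subsets, only that without memory array 3 kept the call. Leaving out a naive or PD-1hi array does not move this difference. PD-1int over naive passed without naive array 1 (adjusted p = 0.0291) or 4 (adjusted p = 0.0109).

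Rgs19, a member of the RZ subfamily that acts on Gi-class subunits and binds the trafficking adaptor GIPC, was lowest in PD-1hi cells. Naive arrays read 8.97, 8.80, 8.67 and 8.99, memory arrays 8.79, 9.12, 9.06 and 8.90, PD-1int arrays 8.76, 8.68, 9.01 and 8.84, and PD-1hi arrays 8.75, 8.38, 8.51 and 8.43. PD-1hi arrays lay below all memory arrays and overlapped the naive and PD-1int ones at PD-1hi array 1. Rgs19 fell by 0.45 ± 0.11 against memory (limma, adjusted p = 0.00388) and by 0.34 ± 0.11 against naive cells (adjusted p = 0.0211); against PD-1int the difference was -0.31 (adjusted p = 0.153). The fall against naive cells did not pass without naive array 1 or 4 or PD-1hi array 2 or 4 (adjusted p = 0.0653, 0.0675, 0.0698 and 0.0618).

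**Figure D2:**
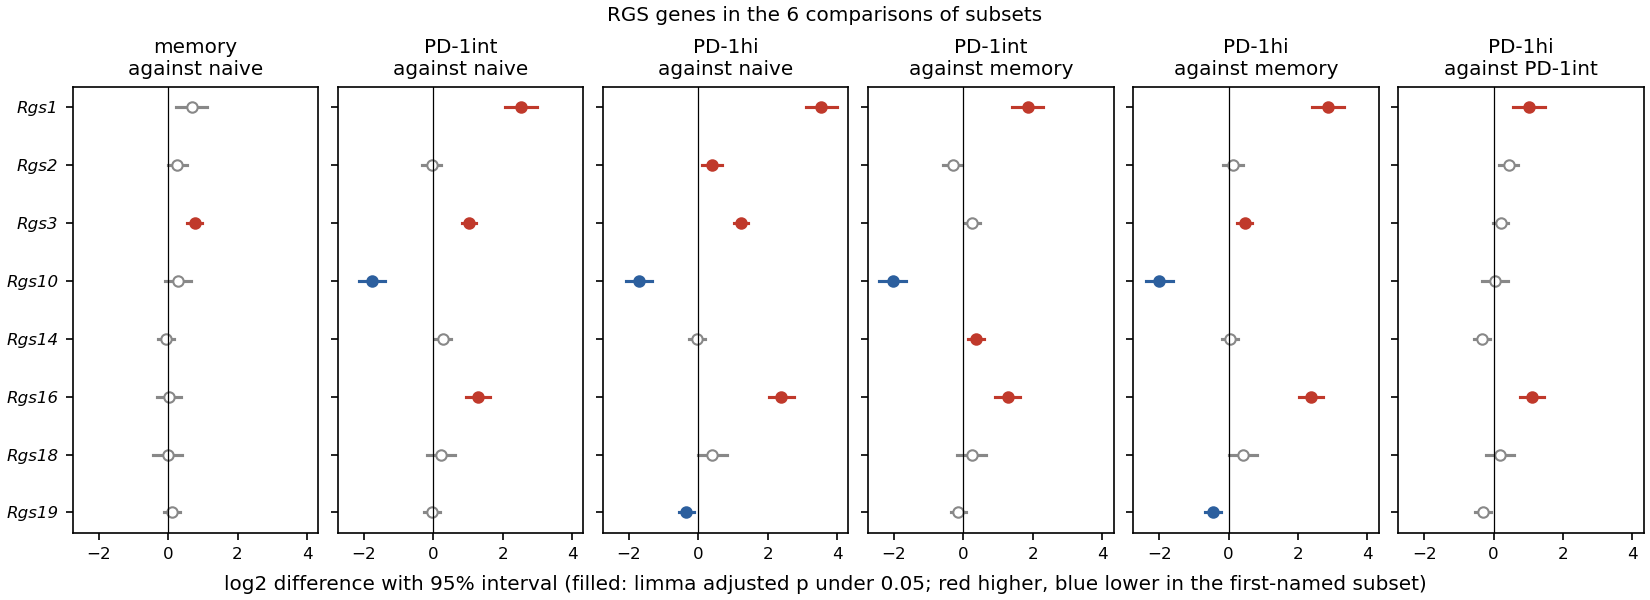
Log2 difference of each RGS gene in the 6 comparisons of subsets, with 95% intervals from the limma fit over 16 arrays. Filled symbols passed an adjusted p of 0.05, red where higher and blue where lower in the first-named subset. Rgs1, Rgs16 and Rgs3 lie to the right and Rgs10 to the left in the comparisons of effector with naive or memory cells, and only Rgs1 and Rgs16 are filled between the effector subsets.

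Counted over the family, 1 of 8 genes rose and 0 fell in memory against naive cells, beside 6.7% of all genes higher and 5.02% lower by limma; at an unadjusted p under 0.05, 2 were higher and 0 lower. In PD-1int against naive cells 3 rose and 1 fell (all genes: 11.9% higher, 10.8% lower). All 4 changed by over 2-fold, beside 4.63% of all genes that passed with a change of at least 2-fold in either direction. In PD-1hi against naive cells 4 rose and 2 fell (13.4% and 13.7%). In PD-1int against memory cells 3 rose and 1 fell (8.49% and 7.66%), and in PD-1hi against memory cells 3 rose and 2 fell (10.8% and 11.1%). Between the effector subsets 2 rose and 0 fell, beside 1.37% of all genes higher and 1.94% lower; at an unadjusted p under 0.05, 3 were higher and 2 lower. The median difference of the 8 genes lay between 0.19 and 0.40 in the 6 comparisons, and that of all genes between -0.03 and 0.01. The comparisons share arrays, so their counts are not independent of each other.

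The other RGS genes gave fewer calls. Of 16 measured beyond the 8, which include 2 binding partners of RGS proteins and an RGS-like gene, 0 passed limma in memory against naive and 0 between the effector subsets. At an unadjusted p under 0.05 these counts were 0 in the first comparison and, in the second, 1 higher and 1 lower. Of all genes, 6.7% were higher and 5.02% lower by limma in the first, and 1.37% and 1.94% in the second. In PD-1int against naive cells 0 rose and 1 fell (all genes: 11.9% and 10.8%), and in PD-1hi against naive cells 2 rose and 1 fell (13.4% and 13.7%). Against memory cells 0 rose and 1 fell in PD-1int (8.49% and 7.66%), and 1 rose and 1 fell in PD-1hi (10.8% and 11.1%). Rgs11, which pairs with the Gnb5 beta subunit, fell against naive cells by 0.41 ± 0.09 in PD-1int (limma, adjusted p = 0.00263) and by 0.61 ± 0.09 in PD-1hi cells (adjusted p = 4.18e-05). Rgs12, a large R12 member with a GoLoco motif, rose in PD-1hi against naive (0.35, adjusted p = 0.0205) and memory cells (0.38, adjusted p = 0.014). Rgs8, an R4 member, rose in PD-1hi against naive cells (0.40, adjusted p = 0.0051). The largest difference among the 16 in any of the 6 comparisons was 0.74 on the log2 scale.

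**Figure D3:**
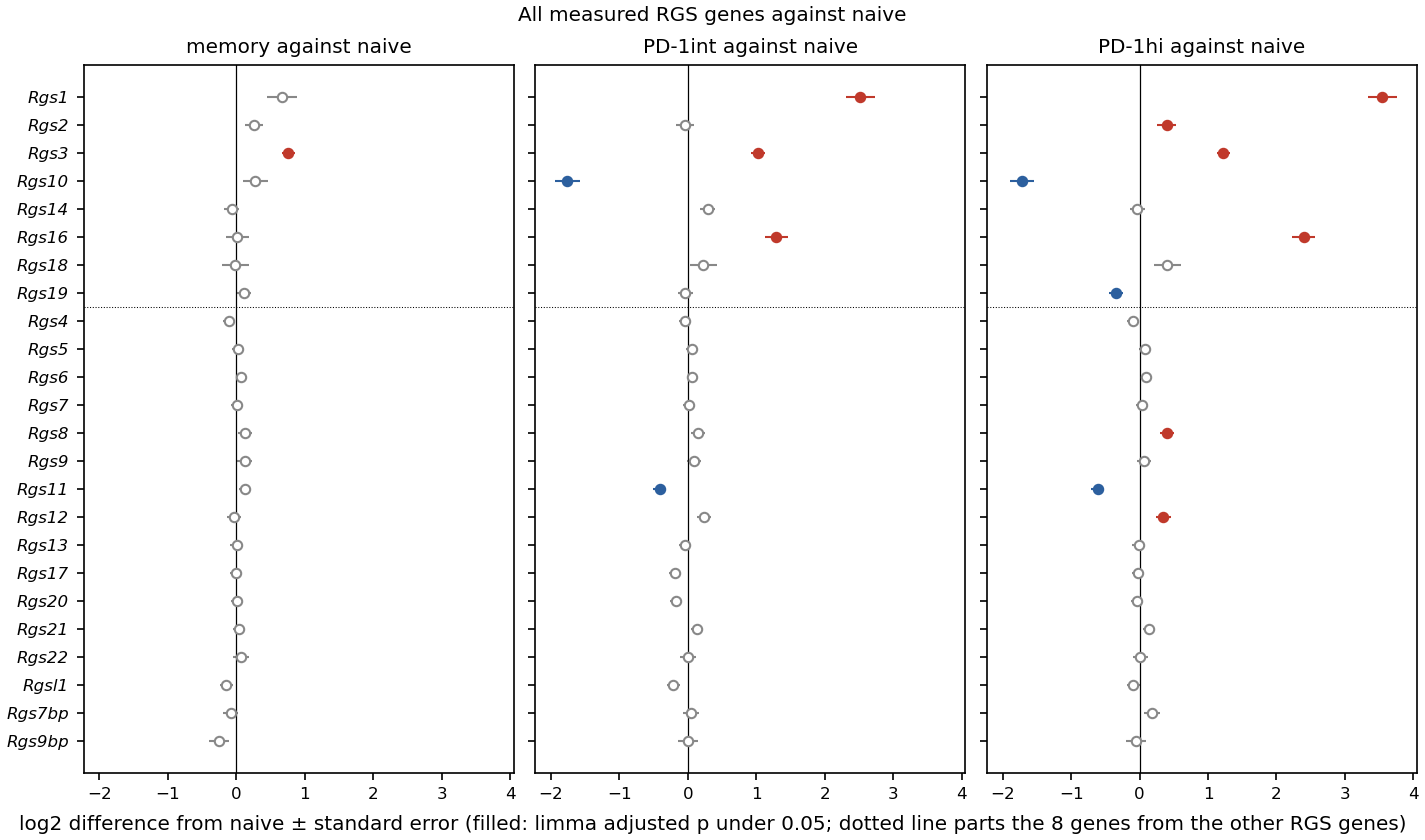
Log2 difference from naive cells of the 8 RGS genes and the 16 other RGS family genes in memory, PD-1int and PD-1hi cells, with the SE of the limma fit. The 16 other genes stay within 1 log2 unit of naive cells, whereas Rgs1, Rgs16 and Rgs3 exceed it upward and Rgs10 downward in both effector subsets.

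The genes next to Rgs1 and Rgs16 were also read. On chromosome 1 the gene order of the GRCm38.p6 annotation runs Rgs2, Rgs13, Rgs1, Rgs21, Rgs18. Rgs13, beside Rgs1, averaged 4.12, 4.12, 4.08 and 4.10, and Rgs21, on the other side, averaged 3.86, 3.91, 3.99 and 4.00. Neither passed in any comparison. At such low values signal over background is unknown, so the absence of calls does not show that these 2 genes stayed unchanged. Rgs16 lies elsewhere on chromosome 1, beside Rgs8, which rose by 0.40 in PD-1hi against naive cells where Rgs16 rose by 2.40. Rgs3 lies on chromosome 4, Rgs10 on 7, Rgs14 on 13 and Rgs19 on 2.

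Over the 16 arrays, Rgs1 and Rgs16 correlated at Pearson r = 0.921, Rgs1 and Rgs3 at 0.848, Rgs1 and Rgs10 at -0.860 and Rgs10 and Rgs16 at -0.850. These values describe 16 arrays in 4 subsets and follow the subset means. After each subset's mean was removed, r was -0.192 for Rgs1 and Rgs16, -0.033 for Rgs1 and Rgs3, 0.229 for Rgs1 and Rgs10 and 0.072 for Rgs10 and Rgs16. For Rgs16 and Rgs18 it was 0.657 over all arrays and 0.745 within subsets, the highest within subsets of all pairs of the 8 genes. This pair was named after its values were seen. PD-1hi arrays 1 and 2 held the highest and lowest PD-1hi values of both Rgs16 (8.92 and 8.03) and Rgs18 (5.24 and 4.06). Whether Rgs18 lies above background is unknown.

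The genes most like each member over the 16 arrays were ranked by Pearson r, leaving out predicted and immunoglobulin or T-cell receptor gene names. Closest to Rgs1 were Slc35b1 (r = 0.983), H1f1 (0.982) and Nab1 (0.980), the last a corepressor of EGR factors. Closest to Rgs16 were Cdkn1a (0.980), which encodes the cell-cycle inhibitor p21, Hspa4l (0.976) and Cblb (0.974), which encodes a ubiquitin ligase of T-cell receptor signaling. Closest to Rgs3 were Mki67 (0.977), the proliferation marker, Sytl2 (0.973) and Sipa1 (0.971). Closest to Rgs10 were Rhobtb2 (0.968), the sialyltransferase gene St6gal1 (0.965) and the interleukin 4 receptor gene Il4ra (0.964). For Rgs2, Rgs14, Rgs18 and Rgs19 the closest genes reached 0.827 (Sac3d1), 0.886 (Rab33b), 0.852 (Gxylt1) and 0.887 (Tmem184b). All were picked as the highest among the genes ranked, and r over 16 arrays includes the differences between subset means. After each subset's mean was removed, r was 0.670 to 0.805 for the 3 genes closest to Rgs1 and 0.554 to 0.810 for those of Rgs16. It was 0.434 to 0.574 for those of Rgs3 and 0.416 to 0.733 for those of Rgs10.

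The receptors whose signals these proteins shorten were read from lists. Of 28 measured chemoattractant and lipid receptors coupled to Gi, 7 rose and 3 fell in memory against naive cells (all genes: 6.7% and 5.02%). Against naive cells, 6 rose and 6 fell in PD-1int (11.9% and 10.8%), and 4 rose and 6 fell in PD-1hi cells (13.4% and 13.7%). Ccr7, the receptor for homing to lymph nodes, fell by 3.81 ± 0.15 in PD-1int and 4.09 ± 0.15 in PD-1hi cells (limma, adjusted p = 1.93e-12 and 5.87e-13). Cx3cr1, the fractalkine receptor of effector cells, rose by 3.79 ± 0.16 and 3.09 ± 0.16 (adjusted p = 4.74e-12 and 5.52e-11). S1pr1, which directs exit from lymphoid organs, fell by 1.25 ± 0.10 and 2.15 ± 0.10 (adjusted p = 1.94e-08 and 9.51e-12). Gpr183, an oxysterol receptor, fell by 0.96 ± 0.16 and 1.68 ± 0.16 (adjusted p = 0.000209 and 2.16e-07).

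Between the effector subsets, where Rgs1 and Rgs16 rose, 7 of the 28 Gi-coupled receptors fell and 1 rose, beside 1.94% and 1.37% of all genes. The falls were in S1pr1 (-0.90 ± 0.10; limma, adjusted p = 2.42e-05), Gpr183 (-0.72, adjusted p = 0.019), Cx3cr1 (-0.70, adjusted p = 0.0185), Ccr2 (-1.34), Cxcr3 (-1.11), S1pr5 (-0.87) and S1pr4 (-0.38). Cxcr6 rose by 1.12. The last 5 of these 8 were named after their values were seen.

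Of 12 measured receptors coupled to Gs, Gq or G12/13, 7 rose and 1 fell in each effector subset against naive cells. In memory against naive cells 6 rose and 0 fell (6 and 2 at an unadjusted p under 0.05). Of all genes, 11.9% rose and 10.8% fell in PD-1int, 13.4% and 13.7% in PD-1hi and 6.7% and 5.02% in memory against naive cells. The prostaglandin E2 receptors Ptger2 and Ptger4, which raise cyclic AMP, rose in PD-1hi against naive cells by 1.89 ± 0.12 and 1.61 ± 0.10 (limma, adjusted p = 8.81e-10 and 1.08e-09). Gpr174, a receptor for lysophosphatidylserine, rose by 1.35 ± 0.09 (adjusted p = 8.39e-10). Vipr1, the receptor for vasoactive intestinal peptide, fell by 1.61 ± 0.13 (adjusted p = 2.25e-08).

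Among 15 alpha subunits of all classes, 5 rose and 2 fell in PD-1hi against naive cells (all genes: 13.4% and 13.7%). RGS proteins act mainly on those of the Gi and Gq classes, so not all of these are their substrates. Gnai2, the main Gi subunit of lymphocytes, rose by 0.53 ± 0.07 in PD-1int and 0.61 ± 0.07 in PD-1hi cells (limma, adjusted p = 7.29e-06 and 8.77e-07), and Gna15, a Gq-class subunit, rose by 0.98 ± 0.10 and 0.77 ± 0.10. Gnaq fell by 0.80 ± 0.18 and 0.85 ± 0.18 (adjusted p = 0.00299 and 0.00136). Between the effector subsets 0 of the 15 passed limma, and at an unadjusted p under 0.05 there were 0 higher and 2 lower. Of 14 beta and gamma subunits, 6 rose and 1 fell in PD-1hi against naive cells, with Gng3 up by 1.74 ± 0.16 (adjusted p = 7.47e-08), Gnb4 up by 1.13 ± 0.18 (adjusted p = 8.01e-05) and Gng12 down by 0.68 ± 0.09 (adjusted p = 8.61e-06). Gnb4 had fallen by 0.89 ± 0.18 in memory against naive cells (adjusted p = 0.0025).

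Of 18 measured other proteins with an RGS-type or GoLoco domain, 2 rose and 4 fell in PD-1hi against naive cells. Of all genes, 13.4% rose and 13.7% fell in that comparison. Arhgef11, a guanine-exchange factor, fell by 1.59 ± 0.12 in memory cells, 2.14 ± 0.12 in PD-1int cells and 2.48 ± 0.12 in PD-1hi cells against naive cells (limma, adjusted p = 2.65e-08, 1.93e-10 and 1.77e-11). Grk5, a receptor kinase, rose by 1.57 ± 0.27 in PD-1int against naive cells (adjusted p = 0.000238). Axin2, a scaffold and target gene of Wnt signaling, fell by 0.57 ± 0.10 between PD-1int and PD-1hi cells (adjusted p = 0.00173).

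Of 38 measured effectors and regulators downstream of G proteins, 12 rose and 9 fell in PD-1int against naive cells (all genes: 11.9% and 10.8%). In PD-1hi against naive cells 10 rose and 10 fell (13.4% and 13.7%). Pik3cg, the catalytic subunit of the phosphoinositide 3-kinase driven by beta-gamma, rose by 1.23 ± 0.09 in PD-1hi cells, and Prex1, a Rac exchange factor, by 1.21 ± 0.07 (limma, adjusted p = 8.81e-09 and 2.19e-10). Adcy6, an adenylyl cyclase inhibited by Gi, fell by 2.40 ± 0.15 (adjusted p = 4.79e-10), and Pde3b, which degrades cyclic AMP, fell by 0.81 ± 0.09 (adjusted p = 1.91e-06). Between the effector subsets 0 rose and 2 fell (4 and 6 at an unadjusted p under 0.05).

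**Figure D4:**
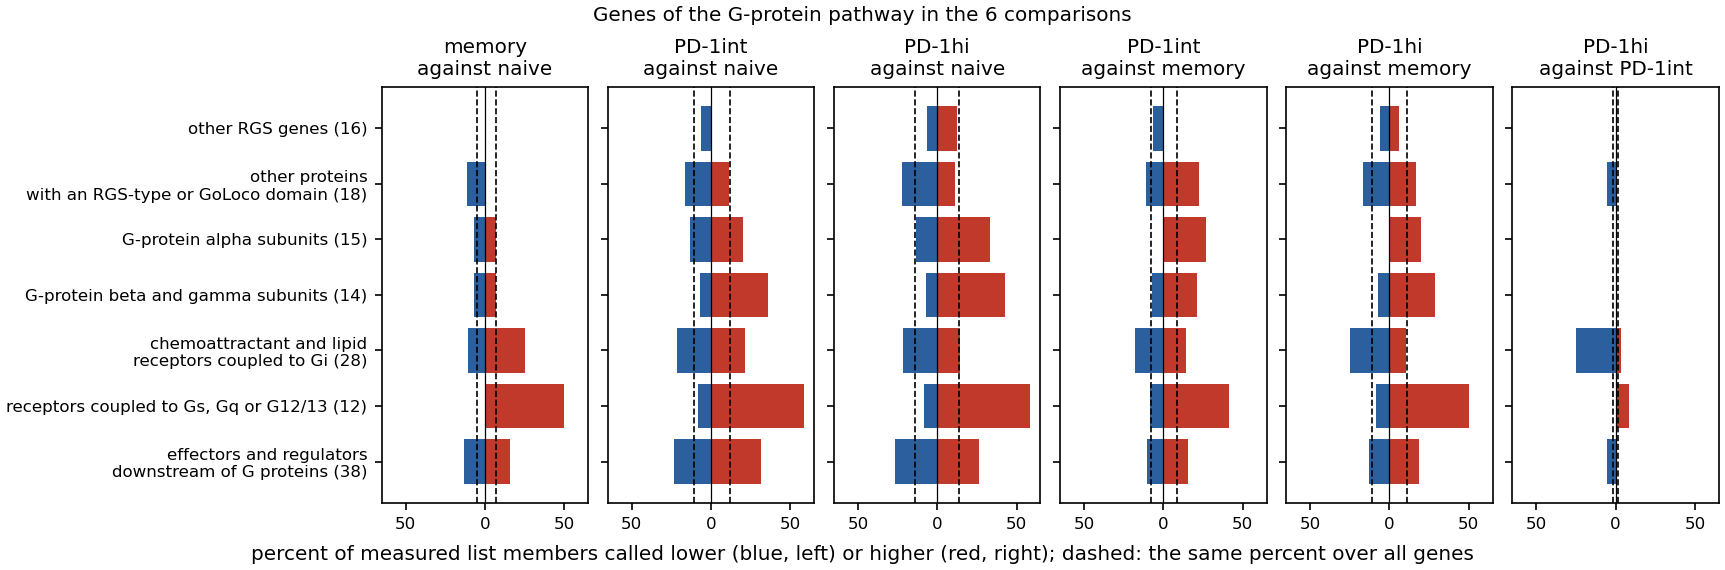
Percent of the measured genes of 7 G-protein pathway lists that were higher (red, right) or lower (blue, left) in the first-named subset, in 6 comparisons, by the limma fit. Dashed lines give the percent over all genes. Receptors coupled to Gs, Gq or G12/13 extend furthest to the right in the comparisons of effector with naive cells (7 of 12), and Gi-coupled receptors extend to the left between PD-1hi and PD-1int cells, where 7 of 28 fell.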

How the data were processed

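For each of 16 Mouse Gene ST arrays the authors deposited log2 expression values by probe set; that they are log2 was read from their range, 2.35 to 14.1. Per the labels' protocols, RNA was extracted with an RNeasy Micro kit and labelled with a WT Pico kit. The submitters' processing notes name Affymetrix Power Tools. Not given in the sources used here are its version, the summarisation and the genome build. With 4 arrays per subset, the number of arrays limits the precision; the median SE of a difference between subsets was 0.104.

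Of 41345 probe sets, 23521 carry 1 symbol in the platform annotation, 1814 several and 16010 none. Only the first were used, which gave 22180 genes (1082 with more than 1 probe set). Entrez identifiers matched RefSeq for 23328 probe sets and changed 0 symbols. No filter on dim genes was applied. A mean per subset was fitted over all 16 arrays with limma 3.58.1 in R 4.3.3 (lmFit, eBayes), without a block and with 12 residual degrees of freedom. P-values were adjusted by Benjamini-Hochberg over all genes of a comparison, with a threshold of 0.05. The fit was tested on simulated data.

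The 8 genes and all gene lists were chosen with earlier results of these data known. Of each pathway list, up to 4 genes with the smallest adjusted p in any comparison may be named, and for each RGS gene the 3 genes with the highest Pearson r. Alternatives were 8 other settings and 16 fits that each left out 1 array. Same-numbered arrays of different subsets deviated together in 2 of 24 pairs (r over 0.1, range -0.048 to 0.151). The median r was 0.035 for same-numbered and -0.0098 for different-numbered arrays of different subsets. The mean of the B-cell list was highest in array 4 of every subset, whereas that of the mitosis genes was not. The array titles number the arrays of each subset alike. A correlation over all genes cannot decide whether the numbers pair arrays, so this remains unknown, and the main fit used no block. The remaining probe sets were not analysed here. RefSeq promoter sequences were searched on both strands.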

Additional observations from a re-analysis of the deposited data

Results flagged for a closer look

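Rgs14 in PD-1hi array 3 stood apart from the other arrays of its subset. Its value was 9.24, and the other 3 arrays lay between 8.99 and 9.01, so that the gap made up 0.911 of the subset's range, above the 95% critical value of Dixon's test. This was 1 of 32 sets of 4 arrays examined, and chance flags about 1 in 20. Without this array, the Rgs14 difference of PD-1hi from memory cells was -0.03 and did not pass (limma, adjusted p = 0.92).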

How the results depend on the processing

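Of the 22 calls on the 8 genes, 19 held under all 8 other settings and all 16 fits without 1 array: every call on Rgs1, Rgs3, Rgs10 and Rgs16, and the fall of Rgs19 against memory cells. The count of genes changed in memory against naive cells went from 1 to 2 with the replicate block, without the 40% dimmest genes and with array weights, where Rgs1 joined Rgs3 (adjusted p = 0.0383, 0.0367 and 0.029), and ranged from 1 to 2 without 1 array. With the replicate block Rgs2 no longer passed in PD-1hi against naive cells (adjusted p = 0.0523). Rgs14 passed in PD-1int against naive cells without dim genes (adjusted p = 0.0426) and with array weights (adjusted p = 0.0357). The causes were not tested.

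Differences that turned sign had all missed the threshold: in memory against naive cells, Rgs16 was -0.011 with array weights and Rgs18 was 0.03 after quantile normalization. Without 1 array, the ranges that crossed 0 were, in memory against naive cells, -0.166 to 0.028 for Rgs14, -0.103 to 0.079 for Rgs16 and -0.079 to 0.074 for Rgs18. In PD-1int against naive cells they were -0.120 to 0.013 for Rgs2 and -0.100 to 0.012 for Rgs19, and in PD-1hi against naive cells -0.132 to 0.061 for Rgs14. In PD-1hi against memory cells they were -0.0061 to 0.210 for Rgs2 and -0.027 to 0.057 for Rgs14, and in PD-1hi against PD-1int cells -0.044 to 0.181 for Rgs10 and -0.040 to 0.354 for Rgs18.

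Over all genes, 734 passed between the effector subsets, but 470 without PD-1int array 1 and 474 without PD-1hi array 4. Of 540 counts of list members under other settings, 28 moved by over 1.5 times. Without detection calls, signal over background is unknown, which bears most on low values such as those of Rgs13, Rgs18, Rgs21 and the second Rgs2 probe set.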
